A study of Rattus norvegicus with 4 samples.

Results

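The 8 genes described here are the 5 enzymes of the urea cycle (Cps1, Otc, Ass1, Asl and Arg1), the liver glutaminase Gls2, the histidine ammonia-lyase Hal and the glutamine synthetase Glul. They were found by symbol among 22118 gene symbols (22250 features), and all 8 were present once each in the 4 libraries. Each library is single-cell RNA sequencing of 1 Lewis rat liver sample, and each group has 1 library. The naive liver was untreated. CS was cold storage at 4 °C, lasting 4 h. NEVLP2 was machine perfusion outside the body, at 37 °C and also lasting 4 h. NEVLPcty was such a perfusion with the cytokines IL-10 and TGF-β added. The readings of CS and NEVLPcty rest on the series description, and the digit in NEVLP2 is not explained by the labels. According to the labels, perfusion used William's E medium, pyruvate, L-glutamine, human albumin, heparin, papaverine, insulin, hydrocortisone and Lewis red blood cells. No animal age or sex and no method of cell isolation is given in the sources used here.

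The liver removes ammonia from portal blood along the path from the portal tract to the central vein. Hepatocytes near the portal tract release ammonia from glutamine and amino acids and fix it into urea, while a narrow rim of hepatocytes at the central vein expresses glutamine synthetase and captures what has escaped. Zonation is the name for this division of labour, and Wnt signalling from the central vein is known to maintain the glutamine synthetase rim.

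Hepatocyte barcodes were those with at least 1 UMI (unique molecular identifier, a counted RNA molecule) of at least 3 of the 4 genes Serpinc1, Gc, Ttr and Apoc3 and none of the leukocyte gene Ptprc, where a barcode needed 200 genes or more, 500 UMIs or more and no more than 20% mitochondrial UMIs. The rule kept 1542 of 3300 naive barcodes, 3259 of 10798 from CS, 4224 of 10186 from NEVLP2 and 2552 of 11616 from NEVLPcty. They held 4199107, 9849358, 11430496 and 10419690 UMIs, and all 8 members had at least 20 counts in every comparison of libraries. Between 11 and 35 barcodes were shared by any pair of libraries, and 0 to 4 of these were hepatocyte barcodes in both.

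The libraries differed in how many of these barcodes also carried RNA of other cells. A UMI of at least 1 of 20 endothelial, stellate or Kupffer cell markers was present in 8.63% of naive hepatocyte barcodes, against 80.5% for CS, 64.4% for NEVLP2 and 69.5% for NEVLPcty. Levels are given as CPM, a gene's UMIs summed over the barcodes of a library and scaled by all their UMIs to a common total. Summed endothelial markers stood at 105 CPM in naive and 5986, 2765 and 5608 in the other 3. The sums of 9 further hepatocyte genes (Alb, Apoa1 and others) ran the opposite way, at 80468 CPM in naive and 28552, 38257 and 31125 in the others. The naive library also had the highest erythroid sum, 7163 CPM against 638 to 1024. A strict set was therefore described beside the full set: the hepatocyte barcodes without a UMI of any of the 20 markers, 1409, 636, 1503 and 779 of them in naive, CS, NEVLP2 and NEVLPcty. Over the strict set the same sums were 81825, 64558, 58358 and 70773 CPM. How far RNA of other cells sets a value in the full set was not tested.

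The sequence around the start of transcription is shown for 4 members whose results are set against each other below. Glul is the pericentral member, and Ass1 and Gls2 are periportal members. Cps1 is the only member that was lower than naive in the other 3 libraries in both the full and the strict set. The windows run from 250 bases before to 50 after a RefSeq transcript start on GRCr8, and 6 of the 8 members have an entry in that table (Glul, Cps1, Otc, Ass1, Asl and Gls2). Capitals mark matches, on either strand, to the TCF/LEF core CTTTGA, the CCAAT box CCAAT, the TATA box TATAAA or the C/EBP site TTGCNNAA, none of which overlap here. Of 33469 such windows, 16.1% hold the TCF/LEF core, 37.5% the CCAAT box, 14.2% the TATA box and 10.6% the C/EBP site.
Glul, upstream start, chr13:68519250-68519549, plus strand: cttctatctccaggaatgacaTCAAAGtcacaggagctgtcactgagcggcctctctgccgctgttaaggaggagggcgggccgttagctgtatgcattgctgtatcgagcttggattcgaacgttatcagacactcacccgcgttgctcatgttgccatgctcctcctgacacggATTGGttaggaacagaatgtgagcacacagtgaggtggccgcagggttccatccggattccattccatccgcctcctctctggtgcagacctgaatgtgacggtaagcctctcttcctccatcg
Glul, downstream start, chr13:68575816-68576115, plus strand: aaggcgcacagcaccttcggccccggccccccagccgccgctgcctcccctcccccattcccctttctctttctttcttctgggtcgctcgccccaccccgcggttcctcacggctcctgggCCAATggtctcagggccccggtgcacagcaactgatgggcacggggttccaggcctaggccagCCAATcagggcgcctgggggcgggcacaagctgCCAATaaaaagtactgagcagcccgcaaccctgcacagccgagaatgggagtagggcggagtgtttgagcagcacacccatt
Cps1, chr9:76063613-76063912, plus strand: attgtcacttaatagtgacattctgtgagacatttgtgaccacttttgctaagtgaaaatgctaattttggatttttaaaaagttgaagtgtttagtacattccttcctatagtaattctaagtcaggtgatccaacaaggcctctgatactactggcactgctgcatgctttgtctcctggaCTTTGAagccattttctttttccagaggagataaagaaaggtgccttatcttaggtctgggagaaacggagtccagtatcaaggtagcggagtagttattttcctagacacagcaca
Ass1, chr3:35149480-35149779, plus strand: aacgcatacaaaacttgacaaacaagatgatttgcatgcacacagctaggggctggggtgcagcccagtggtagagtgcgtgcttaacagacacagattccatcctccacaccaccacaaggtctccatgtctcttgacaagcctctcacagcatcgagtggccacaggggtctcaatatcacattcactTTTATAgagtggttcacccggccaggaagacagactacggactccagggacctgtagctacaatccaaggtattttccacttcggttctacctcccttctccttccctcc
Gls2, upstream start, chr7:1201629-1201928, plus strand: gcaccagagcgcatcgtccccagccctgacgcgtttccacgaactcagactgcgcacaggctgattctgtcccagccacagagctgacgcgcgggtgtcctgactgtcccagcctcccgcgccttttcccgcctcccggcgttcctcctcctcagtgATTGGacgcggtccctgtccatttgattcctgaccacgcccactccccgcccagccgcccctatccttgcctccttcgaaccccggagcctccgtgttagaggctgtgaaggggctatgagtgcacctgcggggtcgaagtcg

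The upstream Glul window holds 1 TCF/LEF core, on the reverse strand with its first base 229 bases before the start, and 1 CCAAT box. The downstream Glul window holds 3 CCAAT boxes, at 128, 65 and 32 bases before the start. Cps1 and Otc each hold 1 TCF/LEF core, 67 and 13 bases before the start, so this core is not limited to the pericentral member. Ass1 holds a TATA box on the reverse strand, and the upstream Gls2 window holds a CCAAT box on the reverse strand. The Asl window and the second Gls2 window hold none of the 4 motifs. A match is a description of the letters and no evidence of binding.

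Cps1, the mitochondrial enzyme that commits ammonia to the urea cycle, was lower in the other 3 libraries than in naive in both sets. In the full set it stood at 181 CPM in naive, against 43.8 for CS, 43.0 for NEVLP2 and 27.5 for NEVLPcty. In the strict set the values were 182, 102, 61.9 and 58.4, so naive was highest and the others lay below it in both sets. Mitochondrial UMIs made 4.66% of the strict set in naive and 1.46, 1.63 and 0.336% in CS, NEVLP2 and NEVLPcty, and their part in this difference was not tested. The strict CS level was 0.559 times naive (95% counting interval 0.452 to 0.686), and strict NEVLP2 was 0.341 times naive (0.288 to 0.402). Lower strict levels were not particular to Cps1. Alb stood at 0.629 times naive in CS and 0.556 in NEVLP2, and Apoa1 at 0.760 and 0.340. Gc stood at 1.17 and 0.847, so not every hepatocyte gene was lower in both. Intervals here and below are exact and cover counting error only. With 1 library per group no difference between groups has a replicate check, and no p-value is given for one.

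Otc, which makes citrulline from carbamoyl phosphate and ornithine, changed order with the barcodes counted. Its full-set levels were 672, 370.4, 523 and 401 CPM in naive, CS, NEVLP2 and NEVLPcty. Its strict-set levels were 671, 824, 822 and 886. Naive was therefore the highest library in the full set and the lowest in the strict set.

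Ass1, the argininosuccinate synthetase, was higher in NEVLP2 than in naive and CS in both sets. It stood at 1687, 1021, 2092 and 1453 CPM in the full set and at 1710, 2303, 3292 and 3357 in the strict set. NEVLP2 was above CS in both, 2.05-fold (2.003 to 2.099) in the full and 1.43-fold (1.37 to 1.49) in the strict set. NEVLP2 was also above naive in both, 1.24-fold (1.21 to 1.27) and 1.92-fold (1.86 to 1.99), while CS was below naive in the full set and above it in the strict set.

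Asl, which splits argininosuccinate into arginine and fumarate, was higher in both perfused libraries than in the other 2. Its full-set levels were 134, 111, 324 and 297 CPM. Its strict-set levels were 135, 214, 496 and 606. NEVLP2 exceeded naive 2.41-fold (2.21 to 2.64) in the full and 3.67-fold (3.31 to 4.07) in the strict set, and exceeded CS 2.92-fold (2.73 to 3.13) and 2.32-fold (2.02 to 2.68).

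Arg1, the arginase that releases urea, was higher in NEVLPcty than in NEVLP2 in both sets. It stood at 769, 508, 589 and 714 CPM in the full set and at 778, 1112, 954 and 1617 in the strict set. NEVLPcty was 1.21-fold (1.17 to 1.25) above NEVLP2 in the full set and 1.69-fold (1.61 to 1.78) in the strict set. Against naive, Arg1 in CS and NEVLP2 was lower in the full set and higher in the strict set.

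Gls2, the glutaminase of periportal hepatocytes, and Hal, which opens histidine breakdown with the release of ammonia, did not keep one order of libraries in both sets. Gls2 stood at 57.6, 38.9, 56.9 and 41.2 CPM in the full set and at 57.9, 79.0, 86.6 and 90.6 in the strict set. Hal stood at 109.5, 44.2, 70.9 and 54.6 in the full set. Its strict-set values were 109.3, 91.3, 110.3 and 126, and the intervals of CS against naive (0.662 to 1.04) and of NEVLP2 against naive (0.870 to 1.17) included 1.

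Glul was higher than naive in the other 3 libraries in both sets. Its full-set levels were 118, 293, 455 and 409.7 CPM in naive, CS, NEVLP2 and NEVLPcty. Its strict-set levels were 111, 295, 393 and 249.4. NEVLP2 was 3.86-fold (3.52 to 4.25) above naive in the full and 3.53-fold (3.15 to 3.96) in the strict set, and CS was 2.49-fold (2.26 to 2.74) and 2.65-fold (2.28 to 3.07) above naive. With cytokines Glul was 0.901 times NEVLP2 (0.865 to 0.939) in the full set and 0.635 times NEVLP2 (0.571 to 0.705) in the strict set. These intervals treat UMIs as independent and do not cover which barcodes were captured. In strict naive barcodes the 413 Glul UMIs lay in 133 of 1409 barcodes, the highest with 58.

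**Figure D1:**
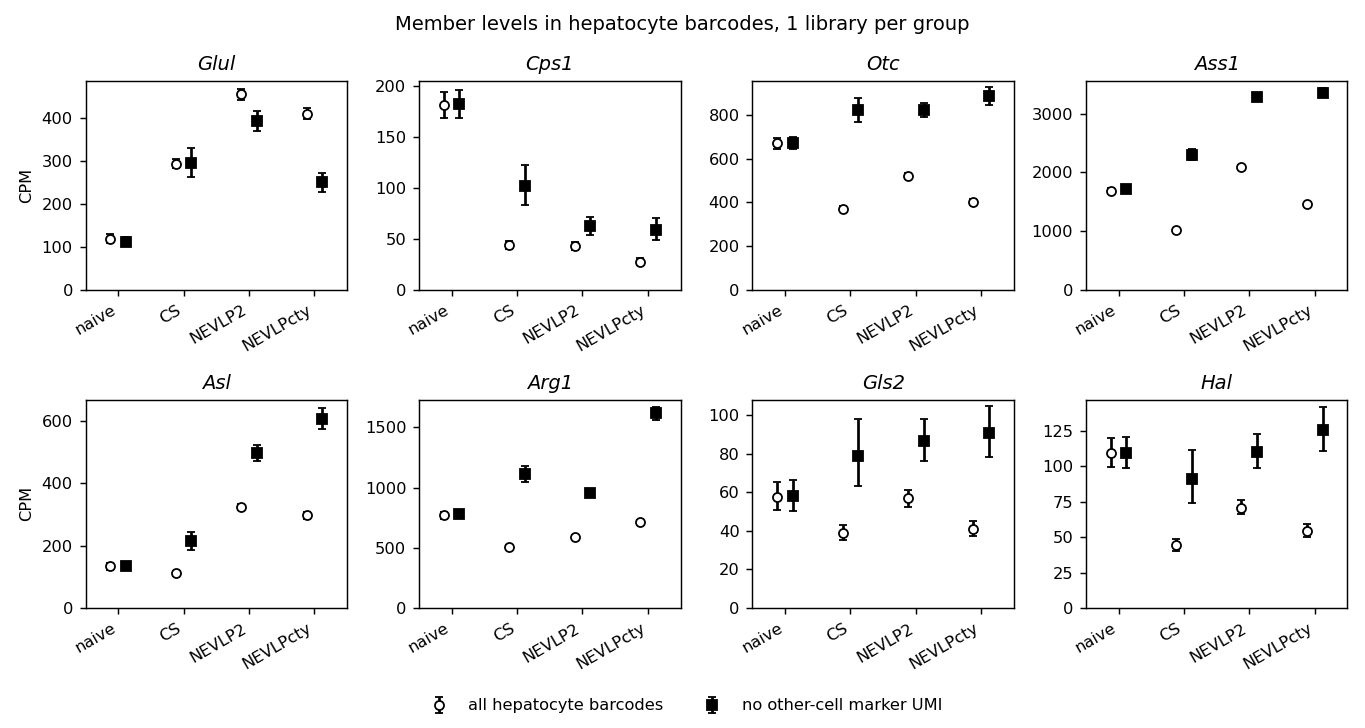
Levels of the 8 members in CPM (vertical axes, each starting at 0) in the 4 libraries (horizontal axes), with open circles for all hepatocyte barcodes and filled squares for those without other-cell markers. Bars are 95% Poisson intervals for counting error. The 2 sets coincide in naive, Cps1 is highest in naive in both sets, and Glul is lowest in naive in both.

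The number of members past 2-fold has to be read against the share of all genes that passed it. In the full set 1 member (Glul) was at least 2-fold higher and 2 (Cps1 and Hal) at least 2-fold lower in CS than in naive, where 61.3% of 10754 genes with at least 20 counts were at least 2-fold higher and 6.34% lower. For NEVLP2 against naive, Glul and Asl were higher (background 50.1%) and Cps1 lower (8.21%). Ass1 and Asl were higher in NEVLP2 than in CS (11%) and no member was lower (33.2%). No member passed 2-fold in either direction between NEVLPcty and NEVLP2 (14.6% higher, 5.7% lower).

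The background was narrower in the strict set. Glul was the 1 member at least 2-fold higher in CS than in naive (background 15.1%), and none was lower (6.13%). Glul and Asl were higher in NEVLP2 than in naive (35.6%) and Cps1 lower (6.55%). Asl was higher in NEVLP2 than in CS (23.1%) and none lower (5.71%), and none passed between NEVLPcty and NEVLP2 (4.13% higher, 9.54% lower). The median log2 ratio over the 8 members was 0.44 for CS against naive and 0.44 for NEVLP2 against naive, beside 0.36 and 0.56 over all genes tested.

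The proportions of the 5 urea cycle genes were nearly the same in both sets. The strict barcodes are part of the full set, so this likeness is not an independent check. Together they made 3443, 2054, 3571 and 2893 CPM in the full set and 3477, 4555, 5626 and 6524 in the strict set, an order that differs between the sets. Of those UMIs Cps1 held 5.26, 2.13, 1.21 and 0.952% in the full set and 5.23, 2.23, 1.10 and 0.896% in the strict set. Its share in NEVLP2 was 0.229 times that in naive in the full set (0.204 to 0.257) and 0.211 times in the strict set (0.178 to 0.248).

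Asl moved the other way. Asl held 3.90, 5.39, 9.07 and 10.3% of urea cycle UMIs in the full set and 3.89, 4.69, 8.82 and 9.29% in the strict set, a share that in NEVLP2 was 2.33 and 2.27 times that in naive. Otc held 19.5, 18.0, 14.6 and 13.9% in the full set and 19.3, 18.1, 14.6 and 13.6% in the strict set. Naive and CS were thus above both perfused libraries for Otc and below them for Asl.

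Ass1 and Arg1 differed between the perfused libraries. Ass1 held 49.0, 49.7, 58.6 and 50.2% in the full set and was highest in NEVLP2. Arg1 held 22.3, 24.7, 16.5 and 24.7% and was lowest in NEVLP2. The strict-set Arg1 share in NEVLPcty was 1.46 times that in NEVLP2 (1.39 to 1.54) and the Ass1 share 0.879 times (0.852 to 0.907).

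**Figure D2:**
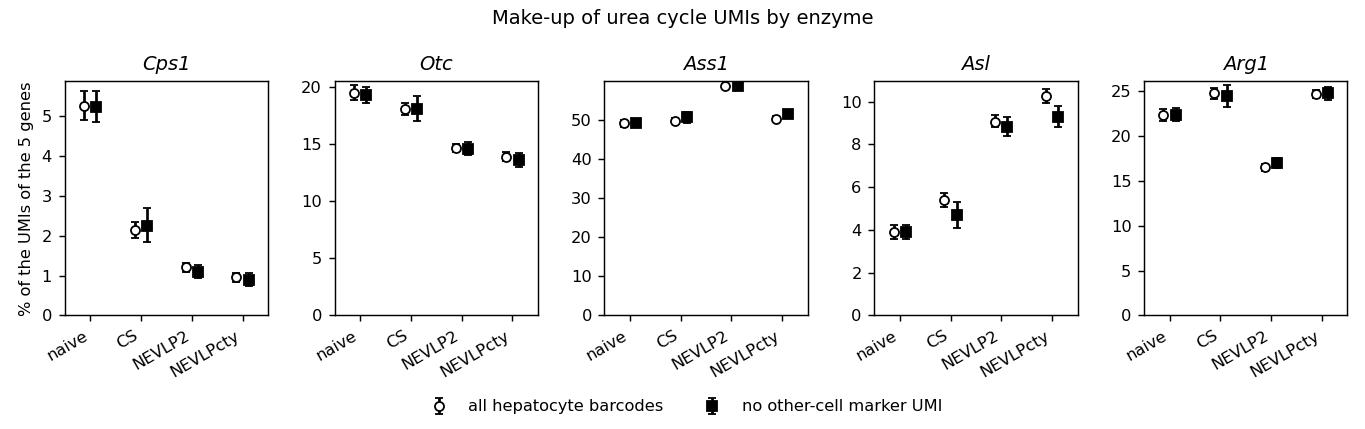
Share of each urea cycle gene in the summed UMIs of the 5 genes (percent, vertical axes starting at 0) by library, with open circles for all hepatocyte barcodes and filled squares for those without other-cell markers. Bars are 95% exact binomial intervals. The 2 sets lie close together for every gene, with Cps1 at 5.26% in naive and 0.952% in NEVLPcty and Asl at 3.90% and 10.3%.

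Glul was not restricted to hepatocytes in these libraries. Barcodes marked as Kupffer cells by their own markers had 1157, 865, 641 and 1441 CPM of Glul in naive, CS, NEVLP2 and NEVLPcty, above the hepatocyte barcodes of every library. Endothelial barcodes had 168, 261, 478 and 475, and lymphocyte barcodes 127, 127, 84.3 and 241. Endothelial levels of Glul were thus in the same order as the full-set hepatocyte levels for naive, CS and the perfused pair. No class examined was free of Glul, so a share of hepatocyte barcodes with a Glul UMI has no blank class to be set against.

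The other members were lower in these 3 classes than in the hepatocyte barcodes of the same library. Barcodes with at least 3 of the hepatocyte rule's markers had been left out of these classes. That choice by itself lowers hepatocyte genes there, and its part in the differences was not tested. Ass1 lay between 2.88 and 95.4 CPM in the other classes. Asl differed less, at 37.5 CPM in endothelial, 34.7 in Kupffer and 35.2 in lymphocyte barcodes of CS beside 111 in the full and 214 in the strict hepatocyte set. After every barcode was thinned to 1000 UMIs, with shallower ones left out, Ass1 had a UMI in 73.7, 81.6, 88.8 and 86.3% of strict barcodes in naive, CS, NEVLP2 and NEVLPcty. In lymphocyte barcodes, thinned alike, the shares were 0.761, 0.738, 5.03 and 0.971%. Cps1 had a UMI in 12.6, 6.43, 5.06 and 5.46% of the thinned strict barcodes and in 0 of 394, 271, 179 and 103 lymphocyte barcodes, where a limit of 3 counts allows up to 0.761, 1.11, 1.68 and 2.91%. Before thinning the Cps1 shares were 25.1, 11.5, 9.31 and 13.1%, at median depths of 1845, 1365, 1398 and 1784 UMIs, and thinning left out 239, 185, 436 and 138 strict barcodes.

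**Figure D3:**
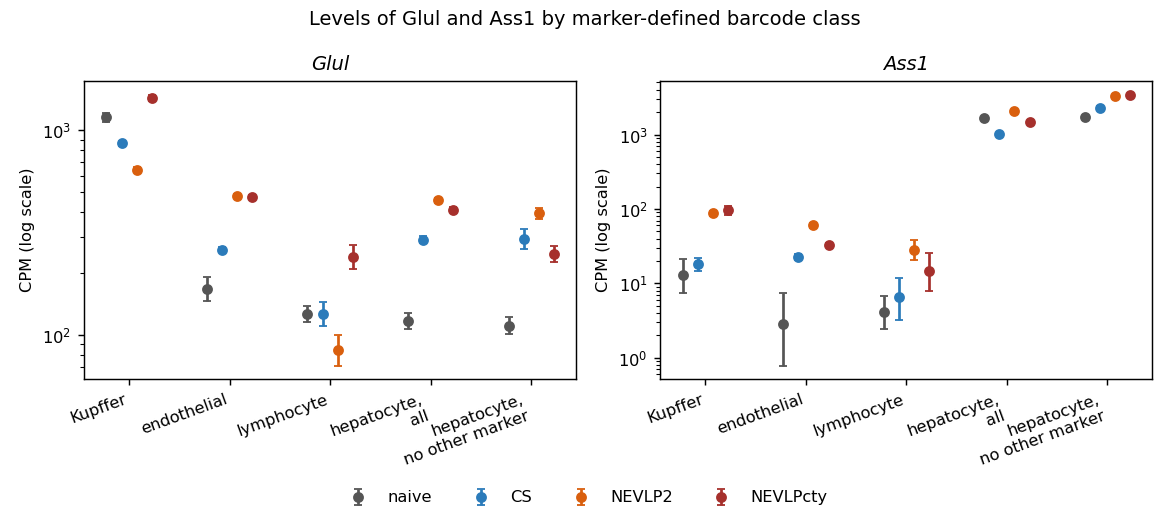
Levels of Glul (left) and Ass1 (right) in CPM on log axes, by barcode class and library, with bars for 95% Poisson intervals. Kupffer barcodes carry the most Glul in every library, from 641 to 1441. Ass1 is at 1021 or more in hepatocyte barcodes and at 95.4 or less in the other classes. Those classes leave out barcodes with at least 3 of the hepatocyte rule's markers.

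The number of hepatocyte barcodes with Glul differed between libraries and sets. A Glul UMI was present in 10.2, 29.5, 37.8 and 50.2% of full-set barcodes in naive, CS, NEVLP2 and NEVLPcty, at median depths of 1869.5, 1825, 1628 and 2924.5 UMIs. In strict naive barcodes, 133 of 1409 (9.44%) had any Glul UMI, 18 had at least 5, and the highest had 58. In strict NEVLP2 barcodes, 410 of 1503 (27.3%) had any, 57 had at least 5, and the highest had 38. Of the strict barcodes in CS 81 of 636 and in NEVLPcty 213 of 779 had any, with 17 and 22 barcodes at 5 or more. After thinning to 1000 UMIs the strict-set shares with any were 6.07, 9.09, 18.6 and 14.0% in naive, CS, NEVLP2 and NEVLPcty. The counting intervals were 4.77 to 7.59% for naive and 16.3 to 21.0% for NEVLP2. They cover the counting of barcodes within a single library each and not the spread between livers.

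Whether the members follow the portal to central axis was examined within each library. A score was made from non-member genes: pericentral Cyp2e1, Cyp1a2, Oat and Rgn minus periportal Sds, Pck1, G6pc, Cyp2f4, Hsd17b13, Hsd17b6, Agxt, Uroc1, Ftcd and Apoa4, in barcodes thinned to 1000 UMIs. The barcodes of each library were ranked by this score and cut into 3 equal classes, called periportal, middle and pericentral. The pericentral and periportal classes were compared over the 4 libraries with edgeR's quasi-likelihood test on summed counts, with the library as a block and Benjamini-Hochberg adjustment over all genes. The 4 libraries are the replicates of this comparison, each from another condition, and its p-values measure the spread between them.

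Glul was higher in the pericentral class in every library. In the strict set it stood at 276 CPM in the pericentral and 31.3 in the periportal class of naive, at 858 and 17.6 in CS, at 954 and 135 in NEVLP2, and at 431 and 109.5 in NEVLPcty. The middle classes had 35.1, 47.7, 168 and 228, so all 4 libraries stood highest in the pericentral class. The fitted log2 difference was 3.001 ± 0.25 (SE, n = 4 libraries, adjusted p = 2.34e-07 by edgeR's quasi-likelihood test) in the strict set and 1.80 ± 0.29 (adjusted p = 0.00906) in the full set, higher in 4 of 4 libraries in both. The full-set call was lost when barcodes were split at 2000 UMIs.

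In the strict set 4 of the 8 members were lower in the pericentral class, where 3.2% of 4346 genes were called lower and 2.65% higher. Gls2 fell by 1.68 ± 0.18 on the log2 scale (adjusted p = 5.43e-06, edgeR's quasi-likelihood test) and Hal by 1.57 ± 0.18 (adjusted p = 1.23e-05), each in 4 of 4 libraries. Gls2 was at 78.1 CPM in the periportal and 35.0 in the pericentral class of naive, 111 and 27.9 in CS, 141 and 41.4 in NEVLP2, and 147 and 31.2 in NEVLPcty. Hal was at 139.9 and 66.6 in naive, 169.9 and 20.9 in CS, 169.6 and 45.2 in NEVLP2, and 173 and 62.3 in NEVLPcty. These 2 ammonia-releasing enzymes had the largest periportal differences of the members. The periportal side of the score itself holds Uroc1 and Ftcd, of histidine breakdown like Hal, and Sds, which also frees ammonia. The score is thus not independent of these functions.

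The urea cycle enzymes Ass1 and Arg1 followed with smaller differences. Ass1 fell by 0.65 ± 0.08 (SE, adjusted p = 1.38e-05, edgeR's quasi-likelihood test) and Arg1 by 0.42 ± 0.09 (adjusted p = 0.00776), both lower in the pericentral class of 4 of 4 libraries. The Arg1 call was lost without NEVLP2 (adjusted p = 0.0841). Asl differed by -0.36 ± 0.11 (adjusted p = 0.0718) and Otc by -0.27 ± 0.09 (adjusted p = 0.0986), also lower in 4 of 4 libraries but not past the threshold. Without naive both passed it, at adjusted p = 0.0174 for Asl and 0.0463 for Otc. Cps1 differed by 0.20 ± 0.14 (adjusted p = 0.591) and was higher in the pericentral class of 3 libraries and lower in CS.

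The full set gave less separation. Of the 8 members 1 (Glul) was higher and none lower, where 0.84% of 8454 genes were called higher and 0.272% lower. Gls2 differed by -0.92 ± 0.22 (adjusted p = 0.0817, edgeR's quasi-likelihood test) and Hal by -0.84 ± 0.19 (adjusted p = 0.0626), in 4 of 4 libraries each. Without CS both passed the threshold (adjusted p = 0.000257 and 0.00435). An endothelial marker was present in 62.6% of the periportal and 48.0% of the pericentral class of CS, and in 61.7% and 47.5% of NEVLPcty, against 1.17% and 2.34% in naive and 28.8% and 27.6% in NEVLP2. Median depth differed too, at 2461 UMIs in the periportal and 1756 in the pericentral class of CS, and 3184 and 2300 in NEVLPcty. It was 2363 and 2083 in naive and 1979 and 1842 in NEVLP2. The part of these imbalances in the full-set values was not tested, and strict barcodes lack such a marker by definition.

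**Figure D4:**
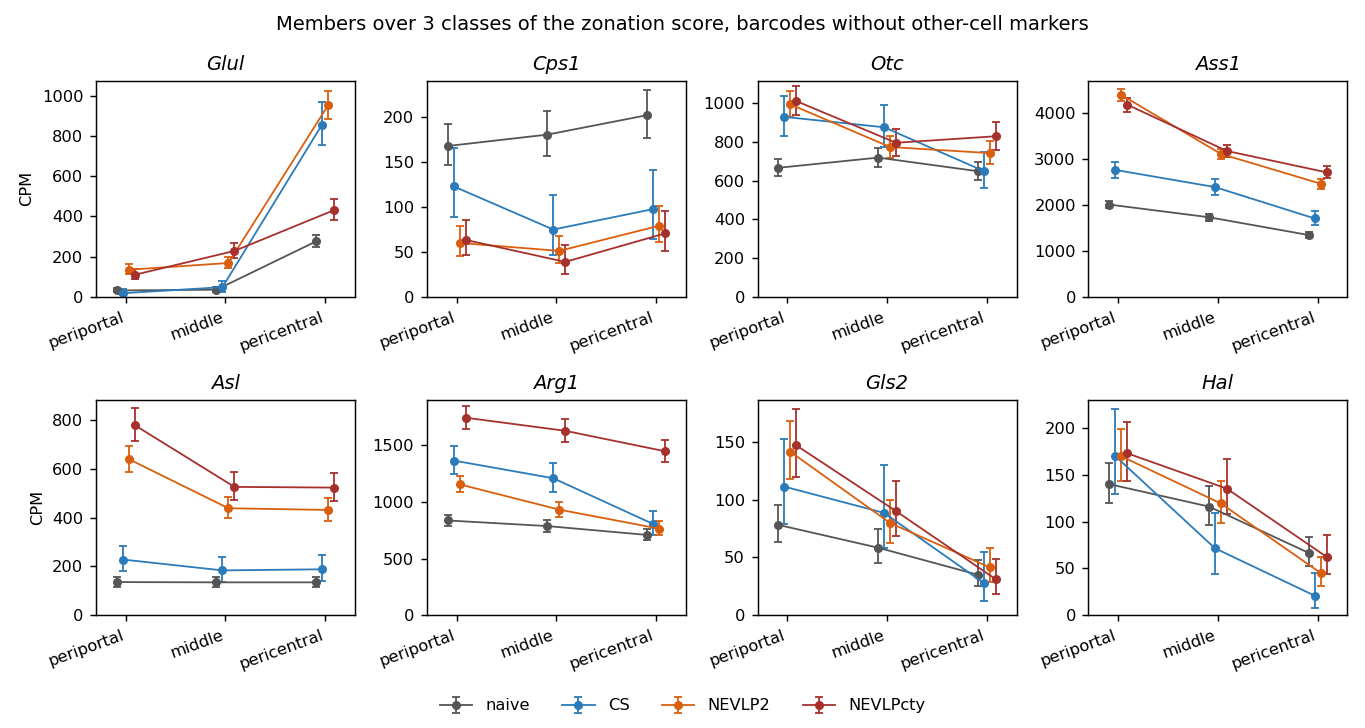
Levels of the 8 members in CPM (vertical axes starting at 0) over the periportal, middle and pericentral classes of the zonation score in strict hepatocyte barcodes, 1 coloured line per library, with bars for 95% Poisson intervals. Glul climbs to 276 to 954 in the pericentral class while Gls2 drops to 27.9 to 41.4 and Hal to 20.9 to 66.6. Cps1 has no direction common to all libraries, and its naive line lies on top.

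Hepatocyte barcodes with and without Glul were then compared directly. Barcodes thinned to 1000 UMIs were divided into those with at least 1 Glul UMI and those with 0, and their raw counts were summed per library and tested as above. Glul sets this division and is not tested. The strict set gave 71, 41, 198 and 90 barcodes with Glul and 1099, 410, 869 and 551 without, in naive, CS, NEVLP2 and NEVLPcty.

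In the strict set 4 of the 7 other members were lower in barcodes with Glul and none was higher, where 1.12% of 4193 genes were called lower and 1.14% higher. Ass1 fell by 0.58 ± 0.11 on the log2 scale (adjusted p = 0.00164, edgeR's quasi-likelihood test) and Arg1 by 0.50 ± 0.10 (adjusted p = 0.00449). Gls2 fell by 0.94 ± 0.23 (adjusted p = 0.0195) and Cps1 by 0.77 ± 0.20 (adjusted p = 0.0324). All 4 were lower in 4 of 4 libraries. The Cps1 call was lost without naive, NEVLP2 or NEVLPcty (adjusted p = 0.131, 0.104 and 0.0869) and the Gls2 call without NEVLPcty (adjusted p = 0.123).

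Hal, Otc and Asl did not pass in the strict set. Hal differed by -0.72 ± 0.21 (adjusted p = 0.0885, edgeR's quasi-likelihood test), and without NEVLP2 it passed (adjusted p = 0.0131). Otc differed by -0.18 ± 0.10 (adjusted p = 0.561) and Asl by -0.12 ± 0.11 (adjusted p = 0.830), each lower in 4 of 4 libraries. In the full set all 7 were lower, by 0.85 to 1.68 on the log2 scale in 4 of 4 libraries, where 15.1% of 9371 genes were called lower and 6.67% higher. There an endothelial marker was present in 78.1% of CS barcodes with Glul and 60.9% without, in 50.8% and 35.4% in NEVLP2, and in 78.7% and 61.5% in NEVLPcty. What share of the full-set differences goes with those markers was not tested.

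Joint detection in single barcodes showed how far the other members and Glul occurred together. Ass1 was found in 43.7% of the thinned strict barcodes with Glul and 75.6% of those without in naive, in 58.5% and 83.9% in CS, in 74.7% and 92.1% in NEVLP2, and in 73.3% and 88.4% in NEVLPcty. Arg1 was found in 31.0% and 50.7% in naive and in 52.2% and 77.9% in NEVLPcty. Gls2 was found in 1 of 71 barcodes with Glul in naive, 0 of 41 in CS, 7 of 198 in NEVLP2 and 3 of 90 in NEVLPcty, or 1.41, 0, 3.54 and 3.33%, against 6.55, 7.32, 9.21 and 8.35% of those without Glul. The same limit of 3 counts allows up to 7.32% for the 0 of 41. Each of these shares was lower in barcodes with Glul than in those without, but this did not hold for every member. Otc in strict CS barcodes was found in 53.7% of those with Glul and 51.7% of those without. Hal in strict NEVLPcty barcodes was nearly level, at 8.89% and 9.07%.

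**Figure D5:**
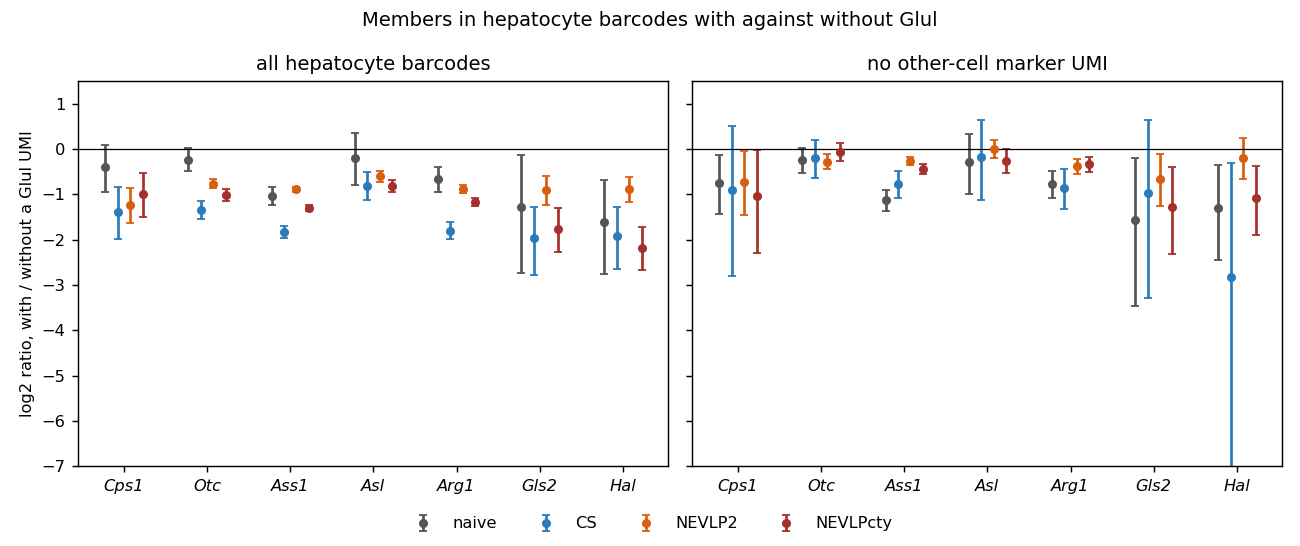
Log2 ratio of each member other than Glul in hepatocyte barcodes with against without a Glul UMI (vertical axis, where below 0 means lower with Glul). Ratios are shown by library, in all hepatocyte barcodes (left) and in those without other-cell markers (right). Bars are 95% exact intervals for counting error. All 28 ratios on each side lie below 0.

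By their smallest adjusted p, the genes most like Glul in the strict division were Cela1, Oat, Mup4, Car2, Pcp4l1, LOC259244, Cyp1a2 and Hba-a2. Oat, the ornithine aminotransferase of pericentral hepatocytes, was 3.56-fold higher (log2 1.83 ± 0.13, adjusted p = 1.58e-10, edgeR's quasi-likelihood test), and Cyp1a2, a pericentral cytochrome P450, was 2.65-fold higher (log2 1.41 ± 0.16, adjusted p = 1.17e-06), each in 4 of 4 libraries. Hba-a2, a haemoglobin gene, was higher in 3 of 4. The most opposite genes were AABR07060872.1, Ighm, Cyp2c7, Pck1, Alb, Bhmt, LOC100359583 and Tdo2. Pck1, the rate-limiting enzyme of gluconeogenesis, was 1.88-fold lower with Glul (log2 -0.91 ± 0.11, adjusted p = 3.54e-06). Ighm, an immunoglobulin heavy chain, and AABR07060872.1 were each lower in 3 libraries and higher in 1. In the full set Car2, Pcp4l1, Cela1 and Oat were again among the 8 most like Glul, beside the Kupffer cell gene C1qc.

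Of 29 other genes of nitrogen and amino acid metabolism, 28 were measured. In the strict set 26 had enough counts for each comparison of libraries. For CS against naive 4 were at least 2-fold higher (Got1, Oat, Sds and Tat) and 0 lower, where 15.1% of all genes were higher and 6.13% lower. For NEVLP2 against naive 5 were higher (Got1, Sds, Tat, Agxt and Slc25a15) and 1 lower (Slc38a3), where 35.6% of all genes were higher and 6.55% lower. The list's median log2 ratios were 0.43 and 0.36, beside 0.36 and 0.56 over all genes. These names were taken from the counts after their values were seen where they lie outside the 12 most abundant of the list.

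Sds and Got1 differed from naive by more than any member did, at 18.4-fold (14.1 to 24.5) and 6.32-fold (5.45 to 7.35) in strict NEVLP2 barcodes. Sds, the serine dehydratase that frees ammonia from serine, stood at 15.6 CPM in strict naive barcodes and at 53.6, 288 and 199 in those of CS, NEVLP2 and NEVLPcty. Got1, the cytosolic aspartate aminotransferase, stood at 57.9, 149, 366 and 559. Slc25a15, which carries ornithine into the mitochondrion, stood at 146, 149.6, 323 and 381. Slc38a3, a glutamine transporter, went the other way at 138, 97.9, 56.9 and 68.2. The naive library was lowest for Sds, Got1 and Slc25a15 and highest for Slc38a3, and in the full set naive was still lowest for Sds and Got1 and highest for Slc38a3.

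Along the zonation score 21 of the other nitrogen genes were tested in the strict set, 5 others being score genes. Of the 21, 2 were higher in the pericentral class and 6 lower, beside 2.65% and 3.2% of all genes, and their median log2 difference was -0.05 beside -0.02 over all genes. Hpd, an enzyme of tyrosine breakdown, was higher (0.80 ± 0.08, adjusted p = 1.93e-06, edgeR's quasi-likelihood test), as was Hgd of the same pathway (0.40 ± 0.10, adjusted p = 0.0182). Tdo2, which opens tryptophan breakdown, fell by 1.21 ± 0.09 (adjusted p = 3.12e-08) and Bhmt, the betaine-homocysteine methyltransferase, by 0.92 ± 0.08 (adjusted p = 3.35e-07). Got1 fell by 0.78 ± 0.12 (adjusted p = 0.000342). Amdhd1, of histidine breakdown, fell by 1.93 ± 0.25 (adjusted p = 4.24e-05), and Gpt, an alanine aminotransferase, by 1.46 ± 0.23 (adjusted p = 0.00035). These last 2 were named after their values were seen. Breakdown of amino acids was thus not on a single side of the score.

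Of 9 genes of known regulators, 8 were measured, and in the strict set 4 had enough counts for the zonation fit (median log2 difference -0.20). Cebpb, a transcription factor of the liver's acute response, stood at 161 CPM in strict naive barcodes and at 493, 1757 and 1484 in those of CS, NEVLP2 and NEVLPcty. Cebpa, a factor of mature hepatocytes, stood at 49.8, 65.9, 172 and 136. Both were lowest in naive in the strict set, as was Hnf4a (49.8, 74.3, 51.8 and 135). The glucagon receptor Gcgr was not (21.3, 11.3, 22.0 and 15.1). Full-set Cebpb stood at 171, 635, 2805 and 2837 CPM. Full-set Cebpa stood at 47.4, 42.1, 113 and 64.6 and was lowest in CS. Lgr5, a Wnt-linked marker of pericentral hepatocytes, had no UMI in the thinned hepatocyte barcodes of any library, and Tbx3, Slc1a2 and Rhbg were in at most 0.272% of them.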

How the data were processed

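The 4 deposited tables are filtered feature-barcode matrices of whole-number UMI counts made by the authors with Cell Ranger (version 2.1.1 per the submitters' processing notes, 6.0.0 per the file headers), with no genome build named in the labels or headers used here. The members and gene lists were chosen with earlier results of these data known. Barcodes were filtered as the report states and no doublets were removed. Removal of high Scrublet scores (scanpy 1.11.5) was an alternative. Levels (CPM) are UMIs scaled by all UMIs of a set of barcodes, so a level falls when RNA of other cells enters the sum. Genes with at least 20 counts summed over both libraries of a comparison were compared between libraries. Counts per library and class were tested with edgeR 4.0.16 (R 4.3.3), quasi-likelihood with trimmed-mean normalization, the library as a block and Benjamini-Hochberg adjustment at 0.05. Each SE is the log2 difference without its sign divided by the square root of that test's F statistic. It is not the standard error of the differences of single libraries. DESeq2 1.42.0 was an alternative. The design pairs the classes, since both come from the same library.

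Named genes were the members, up to 12 genes of a list by total counts, and the 8 genes most like and most opposite Glul by adjusted p. Amdhd1, Sds, Tat, Agxt, Slc38a3 and Gpt lie outside that rule and were named after their values were seen. Barcodes were classed as endothelial, Kupffer or lymphocyte from at least 2 of their markers. Barcodes with at least 3 of the hepatocyte rule's markers were left out of these classes. Tested on simulated counts of the full set, the zonation comparison recovered 62.5% of 2-fold and 99.0% of 4-fold changes over 8289 genes. The Glul comparison recovered 88.7% and 100% over 9173 genes. Of the genes called, 4.91% and 0.575% were false in the zonation and Glul comparisons. The strict set was not simulated.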

Additional observations from a re-analysis of the deposited data

Results flagged for a closer look

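In the full hepatocyte set 5 members lay on opposite sides of the zonation score in different libraries, as the ratio of the pericentral to the periportal class. These differences between libraries were not tested. Arg1 stood at 1.27 in NEVLPcty and 0.758 in NEVLP2. For CS and NEVLP2, Asl stood at 1.32 and 0.821, Ass1 at 1.20 and 0.653, Cps1 at 1.65 and 0.685, and Otc at 1.53 and 0.865. An endothelial marker was present in more of the periportal than the pericentral barcodes in CS (62.6% and 48.0%) and NEVLPcty (61.7% and 47.5%), and in similar shares in NEVLP2 (28.8% and 27.6%). In the strict set the ratios of Arg1, Asl, Ass1 and Otc were all below 1 in each of the 4 libraries, and Cps1 stood at 0.794 in CS and 1.32 in NEVLP2.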

How the results depend on the processing

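Glul kept its sign in all alternatives run for CS against naive (log2 1.28 to 2.81), NEVLP2 against naive (1.82 to 3.02) and NEVLP2 against CS (0.21 to 0.85), as did Cps1 for CS (-2.08 to -0.55) and NEVLP2 (-2.29 to -0.999) against naive, Asl for NEVLP2 against naive (1.23 to 2.34) and CS (1.13 to 1.61), and Arg1 for NEVLPcty against NEVLP2 (0.27 to 0.76). So did Ass1, Gls2 and Hal for NEVLP2 against CS, Ass1 for NEVLP2 against naive, and Cps1 for NEVLPcty against NEVLP2. The ratios given next turned, and the cause was not tested. Requiring all 4 hepatocyte markers gave CS against naive as 0.066 for Ass1, 0.19 for Asl, 0.18 for Arg1 and 0.061 for Gls2, NEVLP2 against naive as 0.18 for Otc and 0.14 for Arg1, NEVLP2 against CS as -0.042 for Arg1, and NEVLPcty against NEVLP2 as 0.21 for Asl and 0.050 for Hal. The 9 hepatocyte genes as denominator, chosen after seeing the data, gave CS against naive as 0.64 for Otc, 0.77 for Ass1, 1.22 for Asl, 0.90 for Arg1, 0.93 for Gls2 and 0.18 for Hal, NEVLP2 against naive as 0.71 for Otc, 0.69 for Arg1 and 0.44 for Hal, NEVLP2 against CS as -0.21 for Arg1, and NEVLPcty against NEVLP2 as 0.15 for Glul and 0.17 for Asl. The strict set gave CS against naive as 0.30 for Otc, 0.43 for Ass1, 0.66 for Asl, 0.52 for Arg1 and 0.45 for Gls2, NEVLP2 against naive as 0.29 for Otc, 0.29 for Arg1 and 0.013 for Hal, NEVLP2 against CS as -0.0044 for Otc and -0.22 for Arg1, and NEVLPcty against NEVLP2 as 0.11 for Otc, 0.028 for Ass1, 0.29 for Asl, 0.064 for Gls2 and 0.19 for Hal. The mean of barcode shares gave 0.25 for Asl and 0.027 for Arg1 in CS against naive and -0.055 for Arg1 in NEVLP2 against CS, and thinning gave 0.037 for Asl and -0.061 for Arg1. Of the members past 2-fold, the 2 lower in CS than naive became 1 under all 4 markers, mean shares and thinning and 0 in the strict set and under the other denominator. Under that denominator 2 were higher in CS than naive, 4 were higher and 0 lower in NEVLP2 than naive, and 1 was higher in NEVLP2 than CS, as under all 4 markers, Scrublet, mean shares, the strict set and thinning.

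For the zonation score, Arg1 turned to -0.42 in the strict set and to -0.48 to -0.35 with a library left out of it. Otc turned to -0.27 and Asl to -0.36 in the strict set, not past the threshold, and to -0.33 and -0.45, past it, without naive. The counts of 71 genes higher and 23 lower became 41 and 13 without high Scrublet scores, 207 and 200 with no count filter, 115 and 139 in the strict set, 112 and 86 with the outermost of 5 classes and 524 and 1191 when split at 500 UMIs. All 4 markers gave 38 lower and summing thinned counts 92 lower. Leaving out a library gave 33 to 157 higher and 16 to 68 lower, and in the strict set 75 to 116 higher and 97, 135, 73 and 81 lower without naive, CS, NEVLP2 and NEVLPcty. Without the library block edgeR called 0 and 0, with 40 and 26 at an unadjusted p under 0.05. For the Glul comparison the 625 higher and 1413 lower became 259 and 660 with DESeq2, 46 and 254 with at least 2 Glul UMIs, 48 and 47 in the strict set and 124 and 832 when split at 500 UMIs. DESeq2 size factors gave 1223 higher, a split at 2000 UMIs 325 higher, all 4 markers 343 lower and summing thinned counts 801 lower. Leaving out a library gave 127 to 937 higher and 671 to 1257 lower, and in the strict set 35, 45, 34 and 45 higher and 47, 50, 43 and 36 lower without naive, CS, NEVLP2 and NEVLPcty. Without the library block edgeR called 0 and 0, with 3 and 73 at an unadjusted p under 0.05. Depth limits detection of Gls2, Hal and Cps1 in single barcodes.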
